A study of Mus musculus with 2 samples.

Results

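The miR-379 to miR-410 cluster is a run of miRNA genes on the plus strand of mouse chromosome 12, in the distal part of the imprinted Dlk1-Dio3 domain. Its members were taken by position alone, as every annotated miRNA gene on that strand inside a 50-kb window that starts just before Mir379. This gave 39 of the 2202 miRNA genes counted, from Mir379 at chr12:109709060-109709125 to Mir3072 at chr12:109747878-109747960 (mm10), a span of 38.9 kb. The samples were 2 biological replicates of 1 group, hippocampal tissue of B6CASTF1/J males at 14 days of age, a strain name that stands for the first-generation cross of C57BL/6J with CAST/EiJ. For each replicate 3 males were named by number, a different 3 in each, and how their tissue was combined is not stated. Both replicates carry 1 donor identifier, so what their spread covers is not certain. No second condition was included, so the data describe levels in this tissue and differences between 2 libraries.

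MiRNA genes are transcribed as long precursors from which hairpins are cut, and each hairpin yields up to a pair of mature strands, the 5p and 3p arms. Bases 2 to 8 of the mature strand, the seed, set most of its pairing with messenger RNAs. In the Dlk1-Dio3 domain the miRNA genes are active on the chromosome inherited from the mother, together with the long non-coding RNAs Meg3, Rian and Mirg, and the miR-379 to miR-410 genes are thought to be cut from a shared transcript that neuronal activity induces through the factor Mef2. Several members are known in hippocampal neurons: miR-134 holds back Limk1 and limits the size of dendritic spines, miR-329 and miR-381 take part with it in the growth of dendrites with activity, and miR-485 lowers the synaptic vesicle protein SV2A. The counts used here are per hairpin, so they tell neither the arm nor the parental chromosome a read came from.

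The RefSeq table (GRCm38.p6) held mature sequences for 38 of the 39 members, 71 strands in all, and the gene without a match was Gm27379. Both arms were listed for 33 of the 38, so counts of seeds and of shared seeds cover the listed strands and are minimum values. The 71 strands carried 65 different seeds, and 6 seeds were held by 2 members each. These 6 are shown first because the levels are grouped by them, 5′ to 3′ with the seed in capitals. Mir379 took part in 2 of them, through its 3p arm with Mir411 and through its 5p arm with Mir1193.

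miR-379-3p: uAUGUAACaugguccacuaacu
miR-411-3p: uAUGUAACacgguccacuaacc
miR-379-5p: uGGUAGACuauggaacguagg
miR-1193-5p: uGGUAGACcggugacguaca
miR-758-5p: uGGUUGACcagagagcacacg
miR-1197-5p: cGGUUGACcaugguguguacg
miR-376b-5p: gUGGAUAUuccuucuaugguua
miR-376c-5p: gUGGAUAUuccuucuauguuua
miR-494-5p: aGGUUGUCcguguugucuucuc
miR-410-5p: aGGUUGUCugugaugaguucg
miR-453: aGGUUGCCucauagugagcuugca
miR-496a-5p: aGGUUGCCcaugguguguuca

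A further set shows close relatives whose seeds are not the same. Positions are counted from 1 at the 5′ end, the base of the strand named first is given first, and the whole of the shorter strand was compared without gaps. From miR-376b-3p to miR-376a-3p there were 3 substitutions, A4G, C13A and U20G, the first of them in the seed. From miR-300-3p to miR-381-3p there were also 3, and G4A was the one in the seed. From miR-543-3p to miR-495-3p there were 4, with U6A and U7A in the seed.

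miR-376b-3p: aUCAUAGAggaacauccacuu
miR-376a-3p: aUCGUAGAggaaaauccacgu
miR-300-3p: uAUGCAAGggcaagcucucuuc
miR-381-3p: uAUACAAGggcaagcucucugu
miR-543-3p: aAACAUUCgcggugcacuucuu
miR-495-3p: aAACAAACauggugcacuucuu

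A last set holds the strands of genes on which the levels turn, with 6 of the 7 highest (Mir379 is shown above) and then those known in neurons or at the end of the cluster. No seed among these strands is shared by 2 of them.

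miR-487b-5p: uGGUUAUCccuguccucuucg
miR-382-5p: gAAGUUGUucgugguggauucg
miR-411-5p: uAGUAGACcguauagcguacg
miR-541-5p: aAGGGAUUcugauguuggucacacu
miR-409-3p: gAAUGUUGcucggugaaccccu
miR-323-3p: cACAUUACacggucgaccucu
miR-134-5p: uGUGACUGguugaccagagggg
miR-329-3p: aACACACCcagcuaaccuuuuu
miR-369-3p: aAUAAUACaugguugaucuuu
miR-410-3p: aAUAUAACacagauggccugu

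Seeds of 11 members were also carried by a mouse miRNA that is not a member, among them Mir299b, on the strand opposite Mir299a. The seed of miR-329-3p, ACACACC, is that of miR-362-3p, whose gene Mir362 was at 27.1 CPM in replicate 1 and 67.7 CPM in replicate 2. CPM are counts per 1000000 counts on all miRNA genes of a library. Outside the cluster but within the imprinted domain, Mir370 (6764 and 9315 CPM) carries the seed of miR-1193-3p, AGGUCAC, on its 5p arm. The seed of miR-410-3p, AUAUAAC, is that of miR-344d-3p and miR-344e-3p, and the highest of their genes, Mir344d-1, had 0.527 and 0 CPM. As miR-344d-3p is encoded at several loci and reads that map to several places are counted for no gene, these values may miss it.

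Replicate 1 had 3793934 counts on miRNA genes and replicate 2 had 2554997. For a gene without counts the upper limit, 3 counts of the total, is 0.791 CPM in replicate 1 and 1.17 CPM in replicate 2, by counting error only. Unmapped reads were 41.3% and 20.7% of all reads, and multimapping reads, left out of every gene's count, were 26.3% and 37.5%. Among marker genes fixed by name, 12 of 16 neuronal genes were detected, at 32568 and 23626 CPM in sum. The other 4 of that list, Mir124a-1, Mir124a-2, Mir124a-3 and Mir9-2, stood at 3.16 CPM or less. Their mature strands, miR-124 and miR-9, are encoded at several loci. Of 8 muscle genes 1, Mir206, was detected. Among the others Mir1a-1, Mir1a-2, Mir133a-1 and Mir133a-2 had 0 counts in both libraries. Their strands, miR-1a and miR-133a, are also encoded at several loci, so these values may miss them. The liver gene Mir122 was at 20.6 and 29.7 CPM. In whole tissue, fewer cells of a type and less RNA per cell cannot be told apart.

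The cluster was almost fully expressed. With detection set at a minimum of 2 CPM in each library, 36 of 39 members were detected, against 19.3% of all 2202 miRNA genes. The 3 others, Mir654, Mir453 and the unnamed gene Gm27379, had 0 counts in both libraries, and none of these 3 shares a stretch of 20 nucleotides with another miRNA gene. The median of detected members was 636 CPM, and that of all 426 detected miRNA genes was 88.3 CPM. Of the members, 3 had a mean above 10000 CPM, 13 lay between 1000 and 10000, 15 between 100 and 1000, 3 between 10 and 100, and 2 between 2 and 10. Among all miRNA genes, 1 member stood within the 10 highest, 8 within the 50 highest and 14 within the 100 highest. Multimapping reads are left out of every count, and genes with near copies can lose reads in this way. A stretch of 20 nucleotides is shared with another miRNA gene by 49.4% of all miRNA genes, against 5 of 39 members. How far this sets the members apart from the background in detection, median and rank was not tested.

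**Figure D1:**
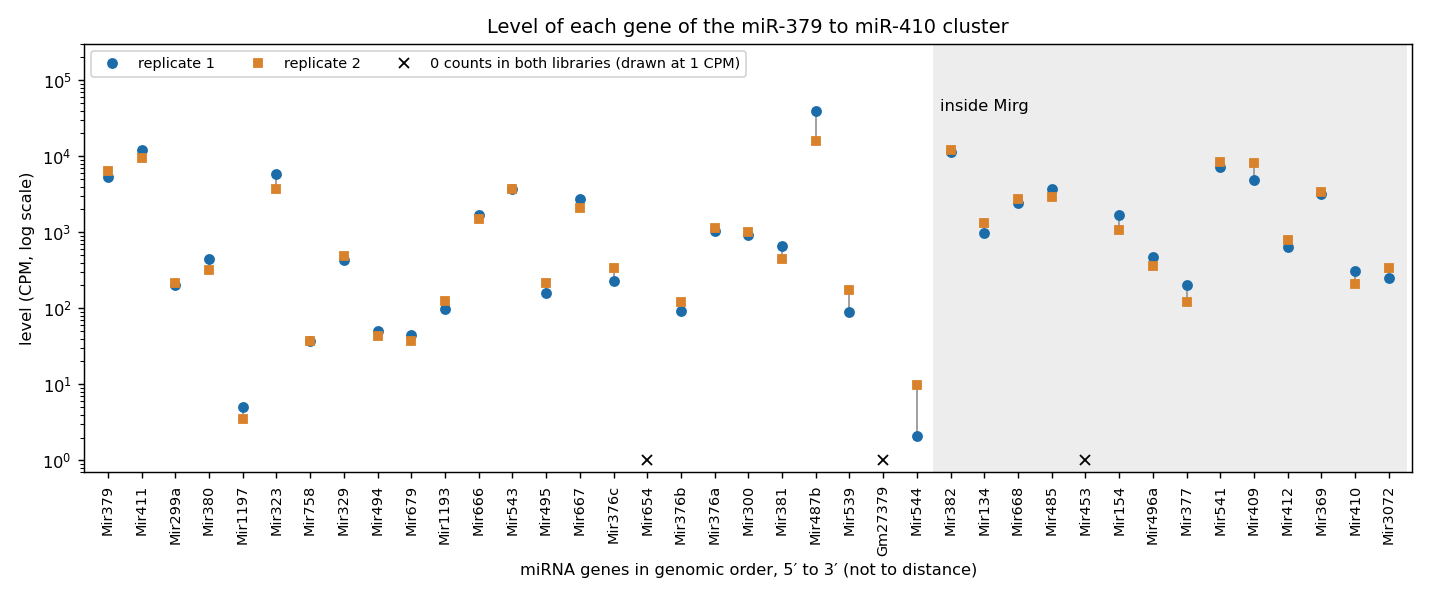
Level of each of the 39 genes in CPM (log axis), in genomic order, with a circle for replicate 1 and a square for replicate 2, crosses for genes without counts and shading for genes inside the long non-coding gene Mirg. By mean, detected members ran from Mir1197 at 5.01 and 3.52 CPM, whose range overlaps that of Mir544 at 2.11 and 9.78 CPM, to Mir487b at 39113 and 15874 CPM, and close neighbours often differed more than the libraries did.

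Mir487b, at chr12:109727333-109727414 and outside any annotated gene of its strand, was the highest member. Its level was 39113 CPM in replicate 1 and 15874 CPM in replicate 2, from 148391 and 40557 counts, and it ranked 8 among all miRNA genes by its mean of 27493 ± 16433 CPM (SD, n = 2). The strand printed for it is the 5p arm, and the counts do not show how much of the level belongs to that arm.

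Mir382 and Mir411 followed and could not be ordered against each other. Mir382, in an exon of Mirg at chr12:109733771-109733846, had 11372 and 11987 CPM (mean 11680 ± 435). Mir411, at chr12:109710175-109710256, had 12250 and 9578 CPM (mean 10914 ± 1889). Mir382 was the higher in replicate 2 and Mir411 in replicate 1.

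The next 3 members lay near the 3′ and 5′ ends. Mir541, in an intron of Mirg at chr12:109742409-109742498, had 7249 and 8371 CPM. Mir409, also intronic at chr12:109743158-109743236, had 4819 and 8138 CPM, so its range contained that of Mir379 at the other end of the cluster, with 5393 and 6444 CPM. Among the 10 highest were also Mir323 with 5857 and 3716 CPM, Mir543 with 3709 and 3701 CPM, the synaptic regulator Mir485 with 3664 and 2898 CPM, and Mir369, described as pairing with AU-rich elements of Tnf messenger RNA, with 3173 and 3366 CPM. Of the 35 adjacent places in the order of detected members, 25 had library ranges that overlapped, so the order is firm only in coarse steps.

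The levels were uneven enough that a few genes made up most of the cluster. The 3 highest held 55.8% of its counts in replicate 1 and 41.9% in replicate 2, and the 10 highest 85.9% and 82.9%. Mir134, the best known member in dendrites, was in the upper middle, at 982 and 1333 CPM (mean 1157 ± 248) and rank 15 of the cluster. Mir329, its partner in dendrite growth, was lower at 430 and 486 CPM, and Mir381 stood at 668 and 447 CPM. Mir410, which gives the cluster its second name, was at 311 and 210 CPM, and Mir495 at 158 and 214 CPM. By mean, the highest detected member exceeded the lowest by 12.65 log2 units.

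Together the 39 genes held 11.3% of counts on miRNA genes in replicate 1, with a 95% Wilson interval from 11.2 to 11.3. In replicate 2 they held 8.94% (8.90 to 8.97), for a mean of 10.1% ± 1.64 (SD, n = 2). These intervals hold counting error alone, because each comes from the counts of a single library. They take each read as a separate molecule, so where reads are copies of the same molecule the intervals are too narrow. Mir487b made up 34.8% of the cluster in replicate 1 and 17.8% in replicate 2. Without it, a view chosen after its values were seen, the other 38 genes held 7.34% (7.31 to 7.37) and 7.35% (7.32 to 7.38). These shares are of totals that still include Mir487b, which held 3.91% of counts in replicate 1 and 1.59% in replicate 2. On those totals the intervals of the other 38 genes overlapped, which those of the whole cluster did not. Shares with Mir487b also left out of the totals were not computed. That step would raise the share more in replicate 1, where Mir487b held more of the counts. The overlap on these totals therefore does not show equal levels of the other 38 genes.

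**Figure D2:**
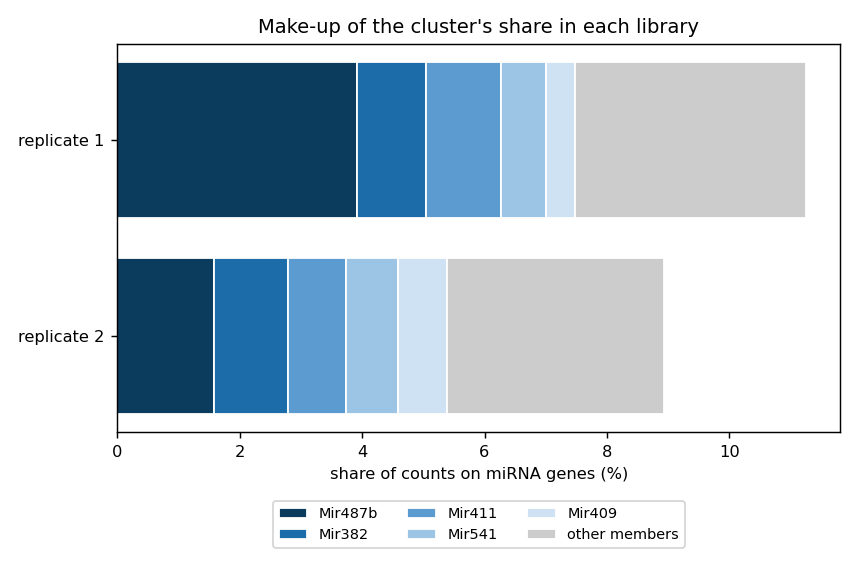
Share of all counts on miRNA genes (%) that the cluster held in each library, split into its 5 highest genes and the other members. The whole bars end at 11.3% and 8.94%, and the Mir487b part is 3.91% in replicate 1 and 1.59% in replicate 2.

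The nearest miRNA genes of the same imprinted domain were set beside the cluster, by position. Between Meg3 and Rian, where most genes face Rtl1 on the other strand, 12 of 13 plus-strand genes were detected and held 10.5% and 11.7% of counts. A single gene, Mir127, took 72.6% and 72.7% of that. In Meg3 and from the start of Rian up to the cluster, 4 of 7 genes were detected and held 6.55% and 3.46%, of which Mir770 took 86.5% and 65.3%. The median of detected genes was 9.28 on the log2(CPM + 0.5) scale in the miR-379 to miR-410 cluster, 9.94 opposite Rtl1 and 12.03 in the Meg3 and Rian stretches, where it rests on 4 genes. Over all detected miRNA genes it was 6.41.

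Position along the cluster was examined next. Hairpins were separated by a median gap of 556 nucleotides, from 20 between Mir679 and Mir1193 to 4368 between Mir544 and Mir382, and from Mir379 to Mir410 they covered 34736 nucleotides. In order along the chromosome, the first 13 members had a median of 380 CPM, the middle 13 a median of 283 CPM and the last 13 a median of 1157 CPM. The last 13 lay 1.61 above the first 13 in median log2(CPM + 0.5), with 1.19 in replicate 1 and 1.75 in replicate 2. Summed counts did not follow the medians. The middle 13, which include Mir487b, held 50.2% of the cluster's counts in replicate 1 and 37.4% in replicate 2. The first 13 held 26.8% and 29.3%, and the last 13 held 23.0% and 33.3%. Over the 36 detected members the Spearman correlation of level with distance from Mir379 was 0.176, a description of genes that share libraries and a locus.

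Neighbouring genes were no closer in level than genes of the cluster in general. Between the 35 adjacent pairs of detected members the median absolute difference was 3.14 log2 units, and over all 630 pairs it was 2.97. Of 11 adjacent pairs less than 300 nucleotides apart with a ratio in both libraries, 7 were over 4-fold apart in both, 3 of them over 10-fold. Mir1197 and Mir323 are 71 nucleotides apart, and Mir323 was 1170-fold higher in replicate 1 and 1055-fold higher in replicate 2, against only 19 and 9 counts of Mir1197. Mir758, 216 nucleotides beyond Mir323, was 156-fold and 101-fold below it, with 142 and 94 counts. The gene after Mir487b, Mir539, lies 714 nucleotides on and had 90.4 and 175 CPM, 433-fold and 90.5-fold less.

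At the 3′ end, 4 genes stand within a short run and alternate in level. Mir409 was 7.49-fold and 10.4-fold above Mir412, which lies 52 nucleotides on at 643 and 784 CPM. Mir369, after 49 more nucleotides, was 4.93-fold and 4.29-fold above Mir412. Mir410, 218 nucleotides further, was 10.2-fold and 16.05-fold below Mir369. In every one of the 11 close pairs the same gene was the higher in both libraries.

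Mirg, annotated at chr12:109729764-109749460, contains the last 14 members. The 14 held 3.73% and 4.17% of counts on miRNA genes. The 25 members before Mirg held 7.53% and 4.76%, or 3.61% and 3.18% without Mir487b, all of totals that include Mir487b. Of the 14, 9 overlap an exon of Mirg, with a median of 1157 CPM, and 5 lie in introns, with a median of 1378 CPM and Mir453 at 0. Exonic members were Mir382, Mir134, Mir668 (2434 and 2751 CPM), Mir485, Mir377 (201 and 121 CPM), Mir412, Mir369, Mir410 and Mir3072 (254 and 339 CPM). Intronic members with counts were Mir154 (1677 and 1079 CPM), Mir496a, Mir541 and Mir409.

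By family, miR-376 was the only number shared by several genes. Its precursors are known targets of adenosine-to-inosine editing in brain, which was not measured here. Mir376a led with 1050 and 1146 CPM, Mir376c had 229 and 338 CPM, and Mir376b had 92.5 and 122 CPM. The 3 genes lie next to each other apart from the silent Mir654, and the order was the same in both libraries. Their sum was 1372 and 1606 CPM, 1489 ± 165 CPM (SD, n = 2), and Mir376a made up 76.6% and 71.4% of it. Mir376b and Mir376c, the pair with a common 5p seed, had 322 and 460 CPM together. Their 5p strands differ by 1 substitution from miR-376c-5p to miR-376b-5p, U19G, so few bases separate reads of these arms.

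Genes that share a seed lay from 1.84-fold to 53.3-fold apart by mean, where both had counts. Over all 630 pairs of detected members the median difference was 2.97 log2 units, so a wide gap is not particular to shared seeds. Mir379 and Mir411, neighbours at the 5′ end with nearly the same 3p strand, were within 1.84-fold of each other by mean and summed to 17642 and 16022 CPM, the most of any seed group. Mir1193, which has the 5p seed of Mir379, was 53.3-fold below it by mean, at 98.6 and 123 CPM. Mir758, at 37.4 and 36.8 CPM, and Mir1197 summed to 42.4 and 40.3 CPM. Mir410 and Mir494 summed to 362 and 254 CPM, of which Mir494 gave 50.9 and 43.8. In the group of Mir453 and Mir496a, Mir453 had no counts and Mir496a had 471 and 358 CPM. Counts per hairpin do not tell whether the arm with the shared seed was the abundant one.

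Among relatives with a changed seed, Mir300 and Mir381 had similar levels, at 924 and 997 CPM for Mir300 against 668 and 447 CPM for Mir381. Mir543 and Mir495 did not: Mir543 was 23.4-fold and 17.3-fold the higher, 1420 nucleotides before Mir495. Among other members, Mir544 had 2.11 and 9.78 CPM, and the means were 41.1 ± 5.58 CPM for Mir679, 212 ± 9.24 for Mir299a, 380 ± 84.7 for Mir380, 1596 ± 111 for Mir666 and 2403 ± 459 for Mir667.

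Hairpin sequences were compared for features that position did not fix. Only 5 of 39 members share a stretch of 20 nucleotides with another miRNA gene, against 49.4% of all miRNA genes, and in each case the partner is another member: Mir376b with Mir376c (31 nucleotides) and with Mir487b (20), and Mir411 with Mir758 (21). No mature strand of the RefSeq table lies wholly within such a stretch. Members had a median GC content of 43.6%, ranging from 29.1% in Mir376c to 72.3% in Mir3072, and all detected miRNA genes had a median of 52.4%. Spearman correlations of level over the 36 detected members were 0.202 with GC content, 0.00901 with the folding energy of the hairpin and -0.0367 with its length.

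The letters TACTTG, searched on the hairpin's own strand after the sequences had been viewed, occur in 10 members (25.6%) and in 2.32% of all miRNA hairpins. The letters GTATCA occur in 6 members (15.4%) and in 0.908% of all. Both occur together in 3 members, Mir411, Mir494 and Mir487b, and in 4 miRNA genes in all. Members with TACTTG include the highest, Mir487b, Mir382 and Mir411, but also Mir494, Mir539 and the silent Mir453. A match describes the letters only.

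Other count columns gave a check on strand. No member had a read on its opposite strand. Inside the cluster 5 miRNA genes are annotated on the minus strand, each overlapping a member, and they had 0 counts on their own strand in sum over both libraries. These partners face Mir299a, Mir380, Mir376a, Mir539 and Mir409. All 5 members were at 0 in the column that ignored strand. Mir409 had 18284 and 20793 counts in the column for its strand.

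The libraries were then compared gene by gene. An exact binomial test, two-sided and conditional on the library totals, holds counting error alone. By it 30 of 36 tested members differed at an adjusted p threshold of 0.05, against 52.1% of all 507 tested genes. The members carried more counts than tested genes in general, with a median of 4060 against 217 in sum over the libraries. Of the members that passed, 12 were higher in replicate 1, against 25.2% of all tested genes, and 18 in replicate 2, against 26.8%. The spread between libraries was also taken from edgeR's common dispersion, a coefficient of variation of 0.377 over all genes. With it 0 of 36 members differed, against 0.394% of all tested genes. An unadjusted p under 0.05 in that negative binomial test was found for 1 of the 36 members, Mir544, and for 23 of all 507 tested genes.

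The differences were small in most members. A mean of at least 10 CPM was reached by 34 members, whose log2 ratios had a median size of 0.35, and 1 of them, Mir487b, was over 2-fold apart. Over all 328 such miRNA genes the median was 0.42 and 14.3% were over 2-fold apart. Levels of the 36 detected members had a Spearman correlation of 0.986 between the libraries, and those of all detected genes 0.970, over genes, which are not replicates. Members carried more counts than tested genes in general, and ratios of genes with few counts scatter more. Whether members differ from other genes of like counts was not tested.

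**Figure D3:**
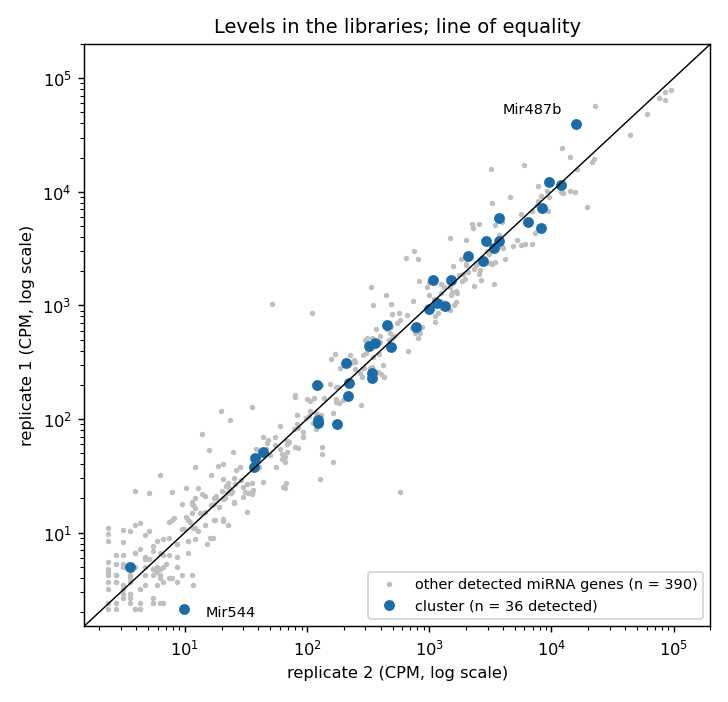
Level in replicate 1 against replicate 2 (CPM, log axes) for the 36 detected members (large points) and the other 390 detected miRNA genes (small points), with the line of equality. Members follow the line, with Mir487b above it at 39113 against 15874 CPM and Mir544 below it at 2.11 against 9.78 CPM.

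Toward replicate 1 the largest ratios were those of Mir487b (2.46-fold), Mir377 (1.67-fold) and Mir323 (1.58-fold). For Mir377 the adjusted p was 3.15e-14 in the exact binomial test, and for Mir487b it was too small to be represented. Toward replicate 2 they were those of Mir539 (1.94-fold, adjusted p = 9.18e-20 in the exact binomial test), Mir409 (1.69-fold) and Mir376c (1.47-fold, adjusted p = 3.74e-15 in the same exact test). Mir544, under the 10 CPM minimum, had 8 counts in replicate 1 and 25 in replicate 2 (adjusted p = 0.000128, exact binomial test). Mir134 was 1.36-fold higher in replicate 2 (adjusted p = 5.81e-37, exact binomial test) and Mir485 1.26-fold higher in replicate 1. The 6 members that did not pass were Mir299a, Mir1197, Mir758, Mir494, Mir679 and Mir543, all among the first 13 in position. Mir1197, Mir758, Mir679 and Mir494 had few counts, from 19 and 9 for Mir1197 to 193 and 112 for Mir494. A difference is harder to call at such counts, so their place along the cluster is not read as a pattern. Mir543 had 14071 and 9457 counts.

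**Figure D4:**
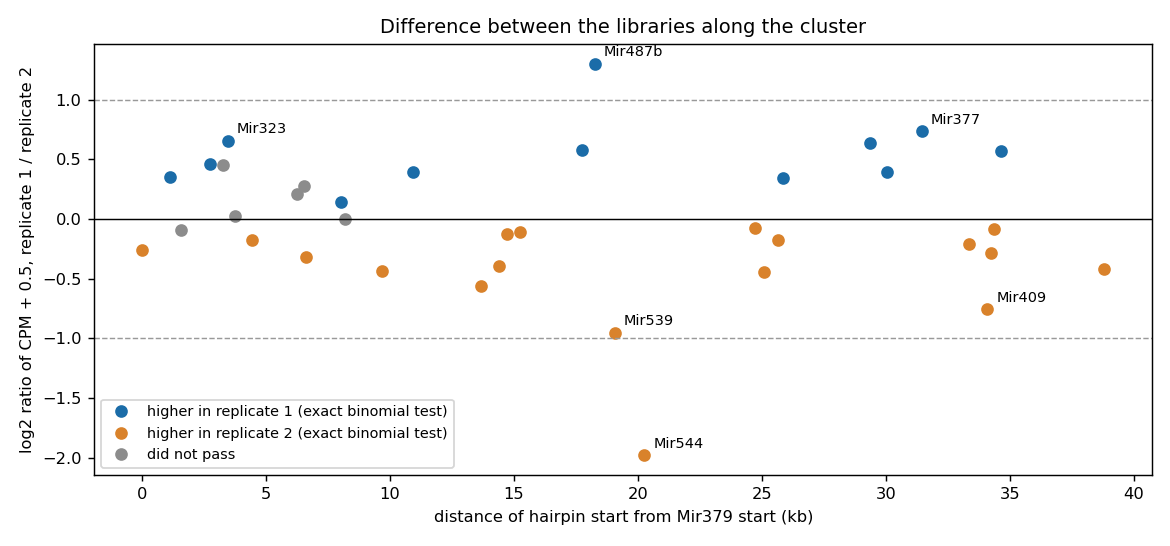
Log2 ratio of replicate 1 to replicate 2, on the CPM + 0.5 scale, for the 36 detected members by distance from the start of Mir379 (kb), coloured by the exact binomial test, with dashed lines at 2-fold. Both directions occur along the cluster, and Mir487b (1.30) is followed by Mir539 (-0.95) and Mir544 (-1.98).

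Both directions occurred along the whole length. Among the last 13 members, 5 passed the exact binomial test toward replicate 1 and 7 toward replicate 2. The numbers that passed were 3 and 8 among the middle 13, and 4 and 3 among the first 13, where 6 did not pass. Of all 507 tested genes 52.1% passed in either direction, and genes with few counts pass less readily. Mir487b and Mir539, 714 nucleotides apart, went opposite ways, as did Mir409 and Mir410. Sums of marker genes of other cells, set side by side without a test, were uneven in some lists. In replicates 1 and 2 the oligodendrocyte list summed to 4060 and 1247 CPM, and endothelial and mural to 14332 and 11076. Choroid and ciliated summed to 1980 and 931 CPM, and erythroid to 75.4 and 192. The myeloid list was close between the libraries, at 1781 and 1696 CPM. Within these lists 1 gene, Mir449b, was at 0 in both libraries. Their part in the members' differences, and that of the unequal unmapped shares, was not tested.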

How the data were processed

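Small RNA reads of 2 libraries were analysed from the deposited tables of raw counts per miRNA gene, which per the accompanying text use mm10 and the GENCODE M21 annotation. Aligner, counter and filters: not given in the sources used here. Deposited tables hold 3 count columns without names. The second was taken as the gene's own strand, since it held more reads than the third, and was used. The 4 rows of reads given to no gene stayed out of all totals, with shares given in the results. Rows were joined to GENCODE M21 by identifier, for all 2202 genes, and hairpin sequences came from its transcripts. Each read is taken as a whole mature strand, so hairpin length does not scale a count, and how well each sequence was captured was not measured.

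Tests across all genes were two-sided exact binomial tests, adjusted by Benjamini-Hochberg over those whose libraries summed to at least 10 counts. With 1 library on each side, edgeR 4.0.16 served for TMM factors, a common dispersion and a negative binomial exact test, and DESeq2 1.42.0 for size factors, in R 4.3.3. The binomial script was tested on simulated counts that varied by counting error only, which checks the script and not its calls on these libraries. Log values are log2(CPM + 0.5). RNAfold 2.7.2 gave folding energies. Python 3.11.15 with scipy 1.17.1 did the rest. Members and lists were chosen with earlier results of these data known. Full values went to the 10 highest members, families and seed groups, the 3 largest ratios each way among members of at least 10 CPM, members not detected, and Mir134, Mir485, Mir379 and Mir410.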

Additional observations from a re-analysis of the deposited data

How the results depend on the processing

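The share of counts held by the cluster, 10.1%, was 4.63% when multimapping and outside reads were added to the denominator. It was 6.21% without the members that share a stretch, which include Mir487b. Without Mir487b, an alternative chosen after seeing the data, it was 7.34%. In both removals the totals still held the genes left out. The column that ignored strand gave 9.84%. The miR-376 sum of 1489 CPM was 415 CPM in that column, which gives no reads to Mir376a, and 1098 CPM from Mir376a alone, the member without a shared stretch. The number of members that differed between libraries, 30, was 0 with edgeR's spread between libraries. It was from 26 to 30 under the other 6 alternatives, of which 1, without Mir487b in the totals (28), was chosen after seeing the data. The 26 came from the column that ignored strand, where 5 detected members are at 0, and from leaving out the 5 members that share a stretch. Fewer members could be counted in both. The edgeR spread was estimated from the libraries under test, so few genes could pass against it. Detection gave 31 to 36 members under its 5 alternatives. The excess of the last over the first 13 members was 1.19 without replicate 2 and 1.75 without replicate 1, and 1.61 to 1.72 under the other alternatives. TMM and DESeq2 scaling shifted log2 ratios by 0.01 and -0.02, and no tested member changed sides of the threshold. A test without either library could not be made, with 1 library on each side. No paired analysis was possible because there is a single group. Depth limits Mir544, Mir1197 and the 3 genes without counts.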
